A study of Mus musculus with 16 samples.

Results

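Homeostatic microglia genes are genes that resting microglia, the resident macrophages of the brain, express at high level. The 9 genes described here are P2ry12, P2ry13, Tmem119, Cx3cr1, Csf1r, Siglech, Sall1, Gpr34 and Olfml3. They were chosen by name as widely used markers of resting microglia, and with earlier results of these data known. Counts of these genes set beside all genes are therefore descriptions. Every probe of the 9 genes was taken: 12 of the 41174 probes on the array, and 9 of the 18749 genes that could be named. Csf1r had 3 probes, Cx3cr1 had 2 and each other gene had 1. All 12 probes were well above background on all 16 arrays.

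RNA of the corpus callosum, the large white matter tract between the hemispheres, was hybridised to single-colour Agilent arrays, 1 array per sample. The mice were male, and the study's methods give wild-type C57BL/6 animals aged 7 to 8 weeks on inclusion. The groups were 3 untreated controls on normal chow, 3 mice fed cuprizone (CPZ) for 2 weeks, 4 mice fed CPZ for 4 weeks, and 6 mice returned to a regular diet after 4 weeks of CPZ. CPZ is a copper chelator that kills oligodendrocytes when mixed into powdered chow, and myelin is rebuilt once it is withdrawn. The labels give 0.2 to 0.4% CPZ in the chow, and the study's methods give 0.2%. The study states that the regular diet lasted either 2 days or 2 weeks, with 3 mice at each time, and the labels do not say which array belongs to which time, so these 6 arrays are a mixture of both times. No genotype other than wild type and no other treatment was used. The methods match untreated controls in age and sex to the 4-week group, and name no match for the other groups. Age may therefore differ between untreated mice and the 2-week or regular diet groups. The share of probes well above background was 57.3 to 72.2% per array. Precision depended on how many arrays each group had and on the spread between them. The methods count mice per condition, so each array was taken as 1 mouse and p-values measure the spread between mice of a group. In the regular diet group that spread includes any difference between the diet times, and it enters both regular diet comparisons.

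The sample recorded for a scanner file and the column of the deposited processed table that holds the same values differed for 14 of the 16 arrays, 13 of them in their group. Arrays were assigned here through the columns, which are named by sample. Under the recorded assignment the median difference of the 9 genes from untreated was 0.19 at 2 weeks, 0.33 at 4 weeks and 0.35 on regular diet, 0.04 between 4 and 2 weeks, and 0.02 between regular diet and 4 weeks. Limma then called 0 genes of the whole array in any of these comparisons, with 231 to 1982 at an unadjusted p under 0.05.

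Microglia depend on signalling through Csf1r, and TGF-beta together with the transcription factors PU.1 and Sall1 keeps up their resting gene programme. Purine receptors and the fractalkine receptor Cx3cr1 let the cells sense injured or active neighbours. In demyelinating and degenerating tissue, microglia are known to lower many homeostatic genes and to raise a disease-associated set that includes Apoe, Cst7 and Itgax. Bulk RNA mixes cell number and cell state: more or fewer cells of a type and more or less RNA per cell cannot be told apart here.

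Levels are given as the log2 signal of the gene's brightest probe, scaled to the 75th percentile of the array, minus the mean of the 3 untreated arrays. A level of 1 is therefore a signal 2-fold above the untreated mean. A difference was called at a Benjamini-Hochberg adjusted p under 0.05 in limma over all probes and at least a 2-fold change.

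None of the 9 genes was called in any of the 5 comparisons made, and at 4 weeks of CPZ and on regular diet all 9 estimates lay at or above the untreated mean. After 2 weeks of CPZ the estimates were split, 4 higher and 5 lower than untreated, with a median difference of -0.01 beside 0.05 over all genes. After 4 weeks 9 of 9 were higher, with a median of 0.67 beside -0.04 over all genes. Gpr34 and Olfml3 had the largest differences from untreated at 4 weeks, and Siglech and Tmem119 lay close to 0.

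**Figure D1:**
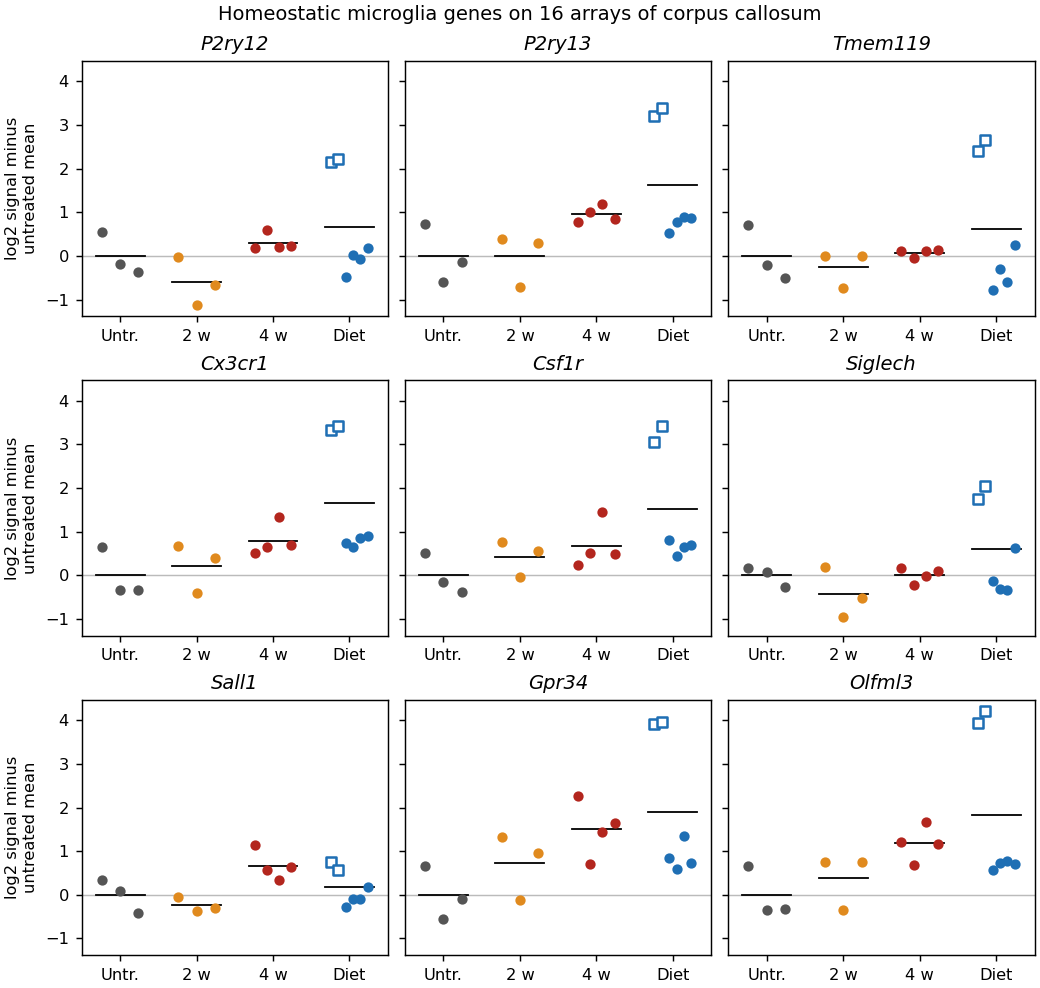
Level of each homeostatic gene on each of the 16 arrays (y axis, log2 signal minus the mean of the 3 untreated arrays) for untreated mice, 2 weeks of CPZ, 4 weeks of CPZ and regular diet after CPZ; each point is 1 array, black bars are group means, and open squares are regular diet arrays 1 and 2. These 2 arrays lie above the other 14 for every gene but Sall1, and the 4-week arrays of P2ry13, Gpr34 and Olfml3 lie above all untreated arrays.

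In the comparison of 2 weeks of CPZ with untreated mice, 0 of 9 genes were called, where 0.211% of all genes tested were. At an unadjusted p under 0.05 the count was also 0 of 9, beside 9.53% of all genes. The groups overlapped for every one of the 9, while 16.8% of all genes had every array of one group on 1 side of the other. The 4 higher estimates compare with 55.1% of all genes above 0. In the comparison of 4 weeks with untreated, 0 of 9 were called beside 0.167% of all genes, and 5 of 9 had an unadjusted p under 0.05 beside 10%. All 4 arrays lay above all 3 untreated arrays for 3 of the 9 genes, beside 5.30% of all genes, and the difference was above 0 for 45.3% of all genes.

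The 4-week and 2-week groups were also compared directly, on the same 4 and 3 arrays. None of the 9 genes was called, beside 0.0147% of all genes, and 3 had an unadjusted p under 0.05 beside 11.3%. All 9 were higher at 4 weeks, beside 48.1% of all genes, with a median difference of 0.79. P2ry12, P2ry13 and Sall1 had every 4-week array above every 2-week array, which 5.82% of all genes had. On regular diet, 0 of 9 were called against untreated beside 0.854% of all genes, 5 had an unadjusted p under 0.05 beside 10.6%, and all 9 were higher beside 49.2%. Only Cx3cr1 of the 9 had all 6 regular diet arrays above all untreated arrays, beside 5.06% of all genes. Against 4 weeks of CPZ, 0 of 9 were called on regular diet beside 0.00485% of all genes (1 gene; 1218 genes without untreated array 1 and 1435 without 4-week array 1, with 0 of the 9 in either), 1 had an unadjusted p under 0.05 beside 26.6%, none was without overlap beside 8.45%, and 8 were higher beside 52.8%. These comparisons share arrays, so they are not independent of each other.

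**Figure D2:**
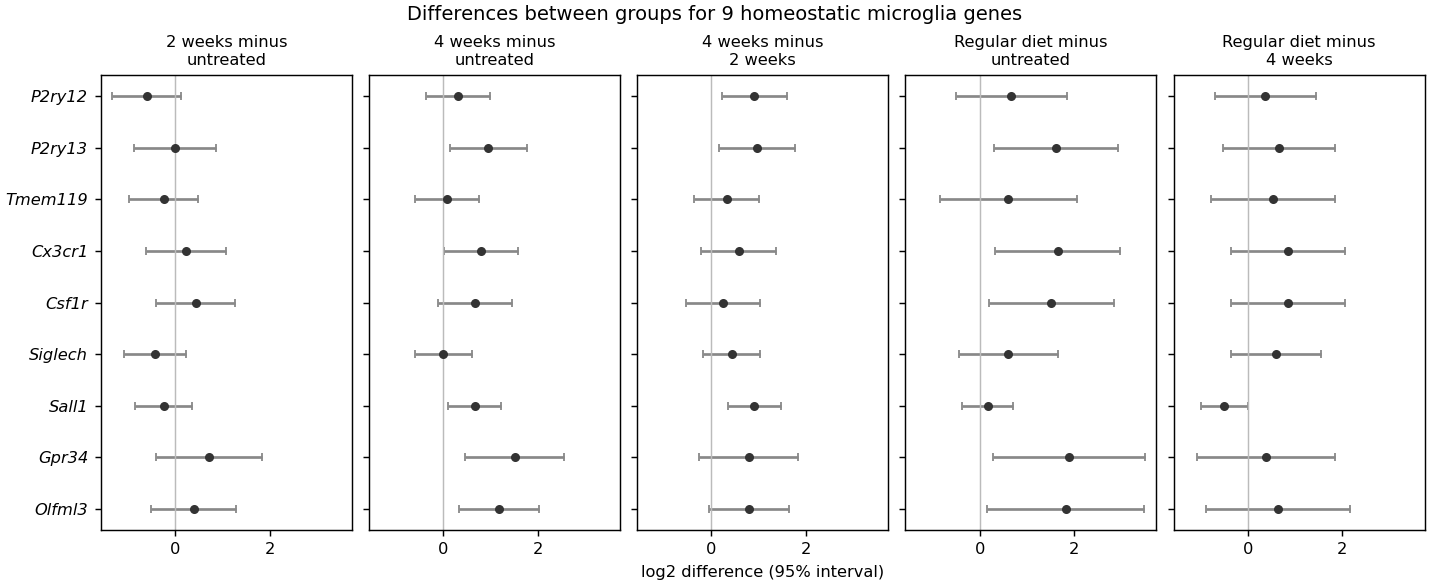
Difference between groups for each homeostatic gene (x axis, log2 difference; points are limma estimates and bars their 95% intervals) in the 5 comparisons. At 4 weeks against untreated, the intervals of P2ry13, Cx3cr1, Sall1, Gpr34 and Olfml3 lie above 0 before adjustment, and no difference passed the adjusted threshold.

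P2ry12 is the ADP receptor that steers microglial processes towards injury. Its levels were 0.54, -0.19 and -0.36 in untreated mice, -0.03, -1.11 and -0.67 after 2 weeks of CPZ, and 0.19, 0.59, 0.20 and 0.24 after 4 weeks. On regular diet the lowest was -0.49, the median 0.10 and the highest 2.23. Arrays of 2 weeks sat lowest, yet array 1 of that group lay among the untreated ones, while the 4-week arrays were tightly grouped and all above the 2-week arrays. The difference at 2 weeks was -0.60 (SE 0.32, 95% interval -1.33 to 0.12, limma adjusted p = 0.69), the lowest of the 9 estimates at this time. The difference at 4 weeks was 0.30 (SE 0.30, 95% interval -0.38 to 0.99, limma adjusted p = 0.83). From 2 to 4 weeks it was 0.91 (SE 0.30, 95% interval 0.23 to 1.59, limma adjusted p = 0.41).

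P2ry13 encodes a second ADP receptor of microglia. It read 0.73, -0.58 and -0.14 in untreated mice, 0.40, -0.71 and 0.29 after 2 weeks, and 0.77, 1.00, 1.20 and 0.86 after 4 weeks. On regular diet it spanned 0.53 to 3.40 with a median of 0.89. The 4-week arrays lay above every untreated and every 2-week array, whereas the latter groups covered the same range. The difference from untreated was -0.01 at 2 weeks (SE 0.38, 95% interval -0.87 to 0.86) and 0.96 at 4 weeks (SE 0.36, 95% interval 0.15 to 1.76, limma adjusted p = 0.37). From 2 to 4 weeks it was 0.96 (SE 0.36, limma adjusted p = 0.45).

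P2ry12 and P2ry13 are neighbours on mouse chromosome 3, with 0 genes between them in the RefSeq gene table of GRCm38.p6, and both were higher at 4 than at 2 weeks without overlap. Their promoters are shown because the genes of this pair are adjacent and both separated 4 from 2 weeks. Each line holds the 250 bases before the RefSeq transcript start on build GRCm38.p6, read 5′ to 3′ on the minus strand, the strand of both genes. The P2ry13 window is chr3:59210883-59211132 and that of P2ry12 is chr3:59262986-59263235. Capitals mark GAGGAAG, the core letters of the sequence bound by PU.1.
P2ry13: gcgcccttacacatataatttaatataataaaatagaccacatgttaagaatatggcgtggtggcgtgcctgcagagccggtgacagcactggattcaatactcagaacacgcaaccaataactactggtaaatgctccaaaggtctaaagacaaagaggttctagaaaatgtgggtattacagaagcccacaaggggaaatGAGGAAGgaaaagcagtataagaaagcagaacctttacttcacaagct
P2ry12: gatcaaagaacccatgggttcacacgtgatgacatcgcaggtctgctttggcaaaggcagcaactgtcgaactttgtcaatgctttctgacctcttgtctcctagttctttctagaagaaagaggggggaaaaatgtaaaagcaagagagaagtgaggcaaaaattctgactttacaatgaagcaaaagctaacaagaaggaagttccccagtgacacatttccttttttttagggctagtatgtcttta
The motif begins 48 bases before the P2ry13 start, and the P2ry12 window does not hold these letters on either strand. Of all 32851 promoter windows of this length, 10.6% hold GAGGAAG on one of the strands, and among the 6 of 9 homeostatic genes with a promoter entry only P2ry13 does. The composite ETS-IRF motif, bound by PU.1 with an interferon regulatory factor, is in 2.30% of all windows and in 0 of these 6 genes. The motifs share the letters GGAA, and both strands were searched. Such a match is a description of letters only.

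Csf1r is the receptor for the growth factors Csf1 and Il34. Its levels were 0.52, -0.15 and -0.37 in untreated mice, 0.76, -0.03 and 0.56 after 2 weeks, and 0.25, 0.51, 1.45 and 0.49 after 4 weeks. Regular diet arrays ran from 0.45 over a median of 0.76 to 3.42. The untreated group overlapped with each of the other groups. The difference was 0.43 at 2 weeks (95% interval -0.40 to 1.27) and 0.67 at 4 weeks (SE 0.35, 95% interval -0.11 to 1.46, limma adjusted p = 0.59). Its dimmer probes differed at 4 weeks by 0.58 and 1.02, and over the 16 arrays the 3 probes correlated with r between 0.85 and 0.99.

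Cx3cr1 is the receptor for fractalkine. It read 0.65, -0.32 and -0.33 in untreated mice, 0.68, -0.40 and 0.40 after 2 weeks, and 0.52, 0.66, 1.33 and 0.69 after 4 weeks. Regular diet arrays had a lowest value of 0.66, a median of 0.88 and a highest value of 3.43. The lowest regular diet array lay just above the highest untreated array, which the 4-week group did not reach on array 1. The difference was 0.23 at 2 weeks (95% interval -0.62 to 1.07), 0.80 at 4 weeks (SE 0.35, limma adjusted p = 0.49) and 1.65 on regular diet (SE 0.62, 95% interval 0.33 to 2.98, limma adjusted p = 0.35). The second probe of the gene differed by 0.35, 0.83 and 1.31 in the same comparisons and correlated with the first at r = 0.96 over 16 arrays.

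Gpr34 encodes a receptor for lysophosphatidylserine. Its levels were 0.66, -0.56 and -0.09 in untreated mice, 1.33, -0.12 and 0.95 after 2 weeks, and 2.26, 0.71, 1.43 and 1.64 after 4 weeks. On regular diet the lowest was 0.58, the median 1.10 and the highest 3.96. Every 4-week array lay above every untreated array, although 4-week array 2 did so by a small margin. The difference at 4 weeks was 1.51 (SE 0.46, 95% interval 0.46 to 2.56), a 2.85-fold higher signal, with an unadjusted p of 0.0096 and a limma adjusted p of 0.25. At 2 weeks it was 0.72 (SE 0.50, 95% interval -0.40 to 1.84).

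Tmem119, a transmembrane protein used to mark microglia against other macrophages, and Siglech, a lectin that signals through Tyrobp, had the smallest differences at 4 weeks. Tmem119 read 0.70, -0.21 and -0.50 in untreated mice, 0.0048, -0.74 and -0.00070 after 2 weeks, and 0.11, -0.05, 0.11 and 0.13 after 4 weeks. Siglech read 0.17, 0.08 and -0.26 in untreated mice, 0.19, -0.95 and -0.51 after 2 weeks, and 0.18, -0.23, -0.02 and 0.09 after 4 weeks. The 4-week arrays of both genes fell inside or close to the untreated range. Regular diet spanned -0.77 to 2.65 for Tmem119 (median -0.02) and -0.34 to 2.05 for Siglech (median 0.24). At 4 weeks the difference was 0.08 for Tmem119 (SE 0.30, 95% interval -0.61 to 0.76) and 0.0048 for Siglech (SE 0.27, 95% interval -0.60 to 0.61). At 2 weeks it was -0.24 for Tmem119 (95% interval -0.97 to 0.49) and -0.43 for Siglech (95% interval -1.07 to 0.22), and all 4 of these intervals include 0.

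Olfml3 encodes a secreted olfactomedin-like glycoprotein. It read 0.66, -0.34 and -0.32 in untreated mice, 0.76, -0.34 and 0.75 after 2 weeks, and 1.22, 0.68, 1.66 and 1.17 after 4 weeks. Regular diet arrays spanned 0.56 to 4.20 with a median of 0.75. All 4-week arrays were above all untreated arrays, and the 2-week arrays lay over the untreated range or just beyond it. The difference at 4 weeks was 1.18 (SE 0.38, 95% interval 0.33 to 2.03), a 2.27-fold higher signal, with an unadjusted p of 0.012 and a limma adjusted p of 0.27. At 2 weeks it was 0.39 (95% interval -0.51 to 1.30).

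Sall1, the zinc finger transcription factor that maintains microglial identity, had a different profile over the groups. Its levels were 0.34, 0.09 and -0.43 in untreated mice, -0.05, -0.37 and -0.30 after 2 weeks, and 1.15, 0.56, 0.33 and 0.63 after 4 weeks. On regular diet the lowest was -0.28, the median 0.04 and the highest 0.75. The 4-week arrays were above every 2-week array, and the highest untreated array lay just above the lowest of them. The difference was 0.67 at 4 weeks against untreated (SE 0.25, 95% interval 0.10 to 1.23, limma adjusted p = 0.38) and 0.91 against 2 weeks (SE 0.25, 95% interval 0.34 to 1.47, unadjusted p = 0.0054, limma adjusted p = 0.35). With all 6 regular diet arrays it was the only one of the 9 with a lower estimate on regular diet than at 4 weeks, while without arrays 1 and 2 all 9 were lower. Over all 6 arrays the difference of Sall1 was -0.50 (SE 0.23, 95% interval -0.99 to -0.0046, limma adjusted p = 0.20).

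The regular diet group was uneven. On arrays 1 and 2, 8 of the 9 genes lay above every one of the other 14 arrays, beside 9.67% of all genes, and Sall1 did not. Olfml3 read 3.94 and 4.20 on these arrays and 0.56 to 0.77 on the other 4 of the group. Gpr34 read 3.90 and 3.96 against 0.58 to 1.34, Cx3cr1 3.34 and 3.43 against 0.66 to 0.91, and P2ry13 3.22 and 3.40 against 0.53 to 0.90. The separation was as clear for Tmem119, at 2.40 and 2.65 against -0.77 to 0.25. Whether these arrays belong to one of the diet times is not given by the labels, and arrays 1 and 2 lay on different slides.

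The estimates for regular diet therefore rest partly on these arrays. Over all 6 arrays the difference from untreated was 1.90 for Gpr34 (SE 0.75, limma adjusted p = 0.39), 1.82 for Olfml3 (SE 0.78, limma adjusted p = 0.43), 1.62 for P2ry13 (SE 0.61, limma adjusted p = 0.36) and 1.52 for Csf1r (SE 0.62, limma adjusted p = 0.40). It was 0.67 for P2ry12 (95% interval -0.50 to 1.84), 0.61 for Tmem119 (95% interval -0.84 to 2.05), 0.61 for Siglech (95% interval -0.44 to 1.65) and 0.17 for Sall1 (95% interval -0.37 to 0.71). Without arrays 1 and 2 the difference was 0.88 for Gpr34, 0.69 for Olfml3, 0.77 for P2ry13, 0.79 for Cx3cr1 and 0.66 for Csf1r, and it was -0.09 for P2ry12, -0.35 for Tmem119, -0.04 for Siglech and -0.07 for Sall1. The median difference was 1.52 with these arrays and 0.66 without them, and against 4 weeks of CPZ it was 0.60 and -0.39.

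The arrays lay on 4 slides, and each slide held several groups. Within slides the 4-week array was above the untreated array for 8 of 9 genes on one slide (median 1.60) and 9 of 9 on another (median 0.85), and 4 weeks lay above 2 weeks for 9 of 9 on the single slide with both (median 1.07). The 2-week arrays lay above the untreated array of their slide for 3 of 9 (median -0.33). The mean of the 2 regular diet arrays of a slide lay above untreated for 9 of 9 on both slides that hold array 1 or 2 (medians 2.20 and 2.20), although array 5, on the slide of array 1, read below the untreated array of that slide for Tmem119 (-0.58 beside -0.50) and Siglech (-0.34 beside -0.26). Regular diet lay above untreated for 3 of 9 on the slide that holds neither (median -0.07). The untreated array of that slide, also used for the 2-week arrays, was array 1, where the mean of the 9 genes was 0.55. On untreated arrays 2 and 3, used in the other comparisons with untreated within slides, the mean was -0.24 and -0.31. The part of the untreated array in these directions and in the fits with a slide block was not tested. With the slide as a fixed block, Gpr34 (2.07, limma adjusted p = 0.037) and Olfml3 (1.67, limma adjusted p = 0.030) were called at 4 weeks against untreated, where 1.93% of all genes were called. With the slide as a random block (estimated correlation 0.23) neither was called, at limma adjusted p of 0.079 for Gpr34 and 0.080 for Olfml3, beside 1.60% of all genes.

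The homeostatic genes were set beside a list of myeloid genes, named pan-myeloid here, and beside the disease-associated set. Whether the pan-myeloid genes follow all myeloid cells alike was not tested. The pan-myeloid list (14 genes tested, among them Tyrobp, Ptprc and the C1q chains) had median differences from untreated of 1.21 at 2 weeks, 1.68 at 4 weeks and 2.39 on regular diet. The disease-associated list (18 genes tested) had medians of 1.46, 2.45 and 2.94. The corresponding medians of the 9 homeostatic genes were -0.01, 0.67 and 1.52, below both lists in each comparison. Regular diet arrays 1 and 2 were also the highest in both lists, and without them the regular diet medians were 1.55 for the pan-myeloid list, 1.89 for the disease-associated list and 0.66 for the homeostatic genes.

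With no slide term in the fit, all calls in these lists were higher. In the disease-associated list 2 of 18 genes rose at 2 weeks, 3 at 4 weeks and 7 on regular diet. The protease inhibitor Cst7 was not well above background on any untreated array, and its signal was at least 31.6-fold higher at 2 weeks (limma adjusted p = 0.039) and at least 87.1-fold higher at 4 weeks (limma adjusted p = 0.020). The chemokine Ccl6 rose at 4 weeks by a log2 difference of 3.69 (limma adjusted p = 0.047). The integrin Itgax rose by a log2 difference of 4.94 at 2 weeks (limma adjusted p = 0.030) and 5.79 at 4 weeks (limma adjusted p = 0.020). On regular diet the genes called were Cst7, with a signal at least 181-fold higher, and Itgax, Spp1, Gpnmb, Lyz2, Ccl6 and Lgals3, with log2 differences from 3.81 for the galectin Lgals3 to 6.59 for Itgax. Of the pan-myeloid genes, limma called 0 of 14 at 2 and at 4 weeks, where 9 and 13 had an unadjusted p under 0.05, and 1 on regular diet, the phosphatase Ptprc, with a log2 difference of 3.44 (limma adjusted p = 0.020). The counts at 4 weeks depended on the slide term. With a fixed slide block 11 of 18 disease-associated and 11 of 14 pan-myeloid genes passed, beside 1.93% of all genes. With a random one 13 and 7 passed, beside 1.60%. With array weights the counts were 15 and 13 at 4 weeks and 13 and 11 at 2 weeks, beside 6.81% and 5.78% of all genes. Other settings lowered some of the disease-associated counts. With a replicate block they were 0, 0 and 3 at 2 weeks, at 4 weeks and on regular diet. With the methods' test they were 1, 1 and 1, and with only the groups compared 0, 7 and 4. With normexp they were 0, 3 and 2, where 0, 1 and 0 pan-myeloid genes were called. Most of the calls at 2 and 4 weeks were lost when a single array was left out: Cst7 and Itgax stayed called at each time in 4 of 10 such fits and Ccl6 in 3 of 10 at 4 weeks. Of the regular diet calls Itgax stayed in 16 of 16 fits, Cst7, Lyz2 and Lgals3 in 15, Gpnmb and Ptprc in 13, Spp1 in 12 and Ccl6 in 3, and all but Itgax were lost without untreated array 3.

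**Figure D3:**
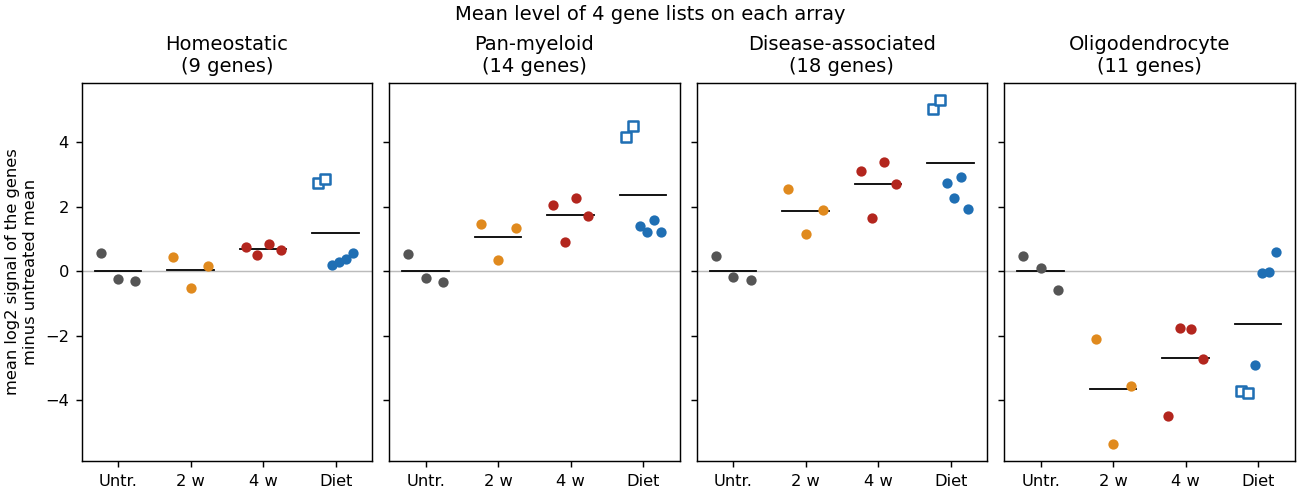
Mean log2 signal of 4 gene lists on each array, minus its untreated mean (y axis), for the 4 groups; points are arrays, black bars group means, and open squares regular diet arrays 1 and 2. The homeostatic list spans -0.53 to 0.45 at 2 weeks and 0.49 to 0.85 at 4 weeks, while the disease-associated list spans 1.16 to 2.54 and 1.65 to 3.40, and regular diet arrays 1 and 2 are highest in the 3 myeloid panels.

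When the pan-myeloid mean of the same array was subtracted from each homeostatic gene, group means lay below untreated for all 9 genes in all 3 groups, as they did for 91.1% of all genes at 2 weeks, 98.9% at 4 weeks and 98.8% on regular diet. P2ry12 then read -1.65 at 2 weeks, -1.43 at 4 weeks and -1.68 on regular diet. Siglech read -1.47, -1.73 and -1.75, and Tmem119 read -1.29, -1.66 and -1.75. Gpr34 and Olfml3 stayed nearer to 0, at -0.32, -0.23 and -0.46 for Gpr34 and -0.66, -0.56 and -0.54 for Olfml3.

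Every array lay below every untreated array on this scale for 8 of 9 homeostatic genes at 2 weeks, beside 34.2% of all genes treated in the same way. The exception was Gpr34. At 4 weeks the count was 7 of 9 beside 64.8% of all genes, and on regular diet 7 of 9 beside 69.8%, with Gpr34 and P2ry13 as the exceptions in both. The subtracted mean was itself higher in these groups than in untreated mice, and the counts carry no test. On regular diet arrays 1 and 2 the levels before subtraction stood highest for every gene but Sall1. The relative level of Sall1 on these arrays was -3.41 and -3.96, where the lowest of the other CPZ-fed mice read -1.94. Siglech, at -2.41 and -2.46, also lay below the lowest of these mice, at -2.29. P2ry12 read -2.02 and -2.28 beside a lowest value of -2.06, and the other 6 genes lay within or at the edge of the range of the other CPZ-fed mice.

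**Figure D4:**
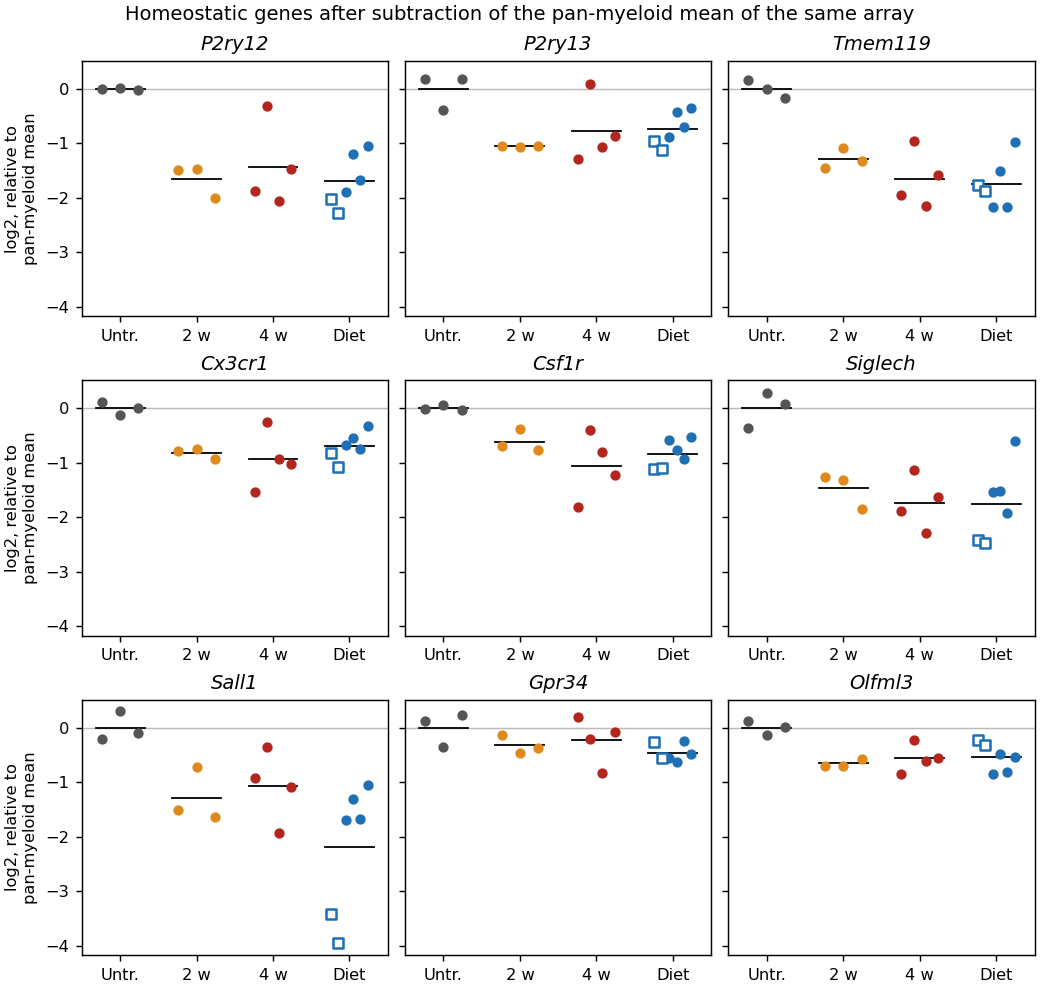
Level of each homeostatic gene relative to the pan-myeloid mean of the same array (y axis, log2, untreated mean set to 0) in the 4 groups; points are arrays, black bars group means, and open squares regular diet arrays 1 and 2. Group means lie below 0 in every CPZ-fed group, from -0.23 for Gpr34 at 4 weeks to -2.18 for Sall1 on regular diet.

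Other homeostatic genes were measured by a second list of 24 genes, of which 23 were tested. Limma called 0 at 2 weeks, where 10 had an unadjusted p under 0.05, 1 at 4 weeks and 1 on regular diet, with medians of 0.52, 0.65 and 1.35. With a fixed slide block 1 of 23 passed at 2 weeks and 7 at 4 weeks, beside 0.456% and 1.93% of all genes. With a random one the counts were 3 and 5 (1.25% and 1.60%), and with array weights 7 and 7 (5.78% and 6.81%). At 4 weeks the count was 0 with quantile normalization, a replicate block, no dim-probe filter, the methods' test or all 16 arrays. On regular diet it was 0 with normexp, a replicate block, the methods' test or only the groups compared. Without regular diet arrays 1 and 2 the regular diet median was 0.62 and 4 were called, beside 0.776% of all genes. The gene called at 4 weeks was Fcrls, an Fc receptor-like molecule of microglia, with a log2 difference of 2.24 (SE 0.31, limma adjusted p = 0.047), a call kept in 2 of the 10 fits that left out a single array, and it differed by 1.76 at 2 weeks (limma adjusted p = 0.078). The gene called on regular diet was Lag3, an inhibitory receptor, with a difference of 2.73 (SE 0.48, limma adjusted p = 0.015), after 2.26 at 2 weeks and 2.04 at 4 weeks, and its call was lost without untreated array 2 or 3. Among those with the largest differences that were not called, Abi3, an actin regulator, differed by 1.32, 2.22 and 2.84 in these comparisons and the UDP receptor P2ry6 by 1.16, 1.80 and 2.20. The fructose transporter Slc2a5 differed by -1.55 at 2 weeks (SE 0.34, limma adjusted p = 0.10), with every 2-week array below every untreated array, and by -0.48 at 4 weeks. The second list therefore held members on both sides of 0 at 2 weeks, 19 higher and 4 lower.

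The ligands and signals that act on the homeostatic receptors were followed in a list of 10 genes, and limma called 0 of 10 in any comparison with untreated mice, with 1, 3 and 6 of them at an unadjusted p under 0.05 at 2 weeks, 4 weeks and on regular diet. Csf1 and Il34, the ligands of Csf1r, differed by -0.22 and -0.02 at 2 weeks, by 0.15 and 0.23 at 4 weeks and by 0.98 and -0.32 on regular diet. Cx3cl1, which encodes fractalkine, differed by -0.13, 0.19 and -0.42. Of the TGF-beta pathway, Tgfb1 differed by 0.53, 1.07 and 2.09, its receptor chain Tgfbr2 by 0.51, 0.97 and 1.62, and Nrros, which presents TGF-beta on microglia, by 0.87, 1.04 and 1.87. The ligand genes Tgfb2 and Tgfb3 differed by -0.26, 0.27 and -0.10 and by -0.48, -0.54 and -0.68. Without regular diet arrays 1 and 2 the regular diet difference was 1.09 for Tgfb1, 0.80 for Tgfbr2, 1.00 for Nrros, 0.21 for Tgfb2 and -0.37 for Tgfb3. At 4 weeks every array of Tgfb1, Tgfbr2 and Nrros lay above every untreated array, which 5.30% of all genes had.

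The list of other transcription factors had 10 of 11 genes tested at 2 and 4 weeks and 11 of 11 on regular diet. Limma called 0 of them, and 3, 2 and 4 had an unadjusted p under 0.05. Irf8, which works with PU.1 in myeloid cells, had the largest differences, 1.65 at 2 weeks (limma adjusted p = 0.16), 2.20 at 4 weeks (limma adjusted p = 0.079) and 3.12 on regular diet (limma adjusted p = 0.060). Without regular diet arrays 1 and 2 it was the only one of the 11 called, at 2.12 (limma adjusted p = 0.025). Spi1, which encodes PU.1, was not well above background on any untreated array and was at least 1.89-fold higher on regular diet (limma adjusted p = 0.19). Smad2, Smad3 and Smad4, which carry the TGF-beta signal, differed by 0.26, 0.55 and 0.09 at 2 weeks, by 0.04, -0.12 and -0.13 at 4 weeks and by 0.05, 0.02 and -0.17 on regular diet.

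Markers of other cells in the tissue were read on the same arrays. Border macrophage markers (9 of 9 tested) had medians of 0.74 at 2 weeks, 0.60 at 4 weeks and 0.20 on regular diet (0.60 without arrays 1 and 2). At 2 weeks the median over these genes was 2.18 on array 1 and 0.07 and 0.46 on the others. The log2 of their summed signal ranged from 0.25 to 0.99 in untreated mice, 0.78 to 2.59 at 2 weeks, 1.01 to 1.91 at 4 weeks and 1.17 to 4.06 on regular diet. Of these, Ms4a7 was called on regular diet with a log2 difference of 3.75 (limma adjusted p = 0.0050), a call lost without untreated array 3. Of 8 monocyte and neutrophil markers 4 were tested and limma called 0, with 1, 0 and 0 at an unadjusted p under 0.05 and summed levels of 3.05 to 3.83, 3.92 to 4.11, 3.16 to 3.90 and 2.69 to 3.45 in the same order of groups, and Ccr2, Plac8 and Chil3 were not well above background throughout any group. Oligodendrocyte markers (11 genes) had medians of -3.61, -2.78 and -1.72. Limma called 0 of the 11 in each comparison with untreated mice, where 11, 10 and 0 had an unadjusted p under 0.05. Every array lay below every untreated array for 11 of them at 2 weeks and 10 at 4 weeks. A missing call therefore does not show that a gene was unchanged. The oligodendrocyte mean on regular diet spanned -3.78 to 0.60. It was -3.71, -3.78 and -2.91 on arrays 1, 2 and 3 and -0.05, -0.04 and 0.60 on the other 3. The homeostatic mean was 2.72, 2.88 and 0.20 on arrays 1, 2 and 3. The mean of 8 choroid plexus markers, a tissue beside the dissected tract, spanned -1.16 to 1.19 in untreated mice, -1.05 to 1.28 at 2 weeks, -1.86 to 3.04 at 4 weeks and -2.03 to 2.74 on regular diet. The astrocyte mean (10 genes) was higher than in untreated mice by 0.41, 0.55 and 0.40. The neuron mean (10 genes) differed by -0.28, 0.18 and -0.51, the endothelial mean (8 genes) by -0.075, -0.12 and -0.37, and the mean of 3 red blood cell genes by -0.41, 0.079 and -0.21. Limma called 0 genes of these 5 lists in the comparisons with untreated mice, where 7, 5 and 7 had an unadjusted p under 0.05. The part of any of these in the levels of the homeostatic genes was not tested.

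Across the 16 arrays, each homeostatic gene correlated with the mean of the other 8 at r = 0.91 to 0.99, except Sall1 at 0.60. Without regular diet arrays 1 and 2 the range over the 9 genes was 0.55 for Siglech to 0.92 for Olfml3. These values describe arrays that share groups and carry no test. The named genes most like the mean profile of the 9, among 12561 ranked over the 16 arrays, were Prcp, Tgfbr2, Itgb5, Ptgs1, Pygl, Tyms-ps, Hexa and Ctsa, with r from 0.97 to 0.98. Tgfbr2 is the ligand-binding receptor of TGF-beta, Hexa and Ctsa are lysosomal enzymes, and Ptgs1 is a cyclooxygenase.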

How the data were processed

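Single-colour Agilent 4x44K arrays of 16 samples were analysed. The authors deposited the spot intensity as written by Agilent Feature Extraction, background-subtracted but not scaled between arrays, and a table of log2 values from GeneSpring. The scanner output gives Feature Extraction version 11.0.1.1, where the study's methods name another version. The table was found to hold the signal scaled to the 75th percentile, relative to the median of the 3 untreated arrays. Scanner files were matched to its columns (lowest r 0.999985, next best 0.883). Control spots and outlier spots (48 to 126 per array) were left out, spots of a probe were averaged and log2 was taken without pseudocount. Accessions were matched to RefSeq symbols (GRCm38.p6), which named 27479 probes (66.7%).

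Probes were kept where all arrays of 1 or more groups had them well above background. Groups were compared with limma 3.58.1 in R 4.3.3. The 3 groups without regular diet were fitted on 10 arrays (7 residual degrees of freedom, median residual SD 0.398, 20400 genes) and the regular diet comparisons on all 16 arrays (12 residual degrees of freedom, median residual SD 0.386, 20603 genes). Each gene was represented by the brightest of its tested probes. The fit was tested on simulated data. Where a probe was well above background on none of the arrays of a group, the fold is a lower bound, taken per array against that probe's own signal or the dimmest signal well above background, whichever was brighter.

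The 9 genes and all lists were chosen with earlier results of these data known. The rule for named genes took, from each other list, genes called and at most 4 with the largest differences, and the 8 genes most like the mean of the 9. Ligands, Smad genes and unmeasured monocyte markers were named for their role. Some genes of the lists are not reported here by name. Alternatives covered scaling, background correction, the filter on dim probes, slide, replicate block, weights, the samples fitted, the processed table, the recorded assignment and the methods' test (analysis of variance with Tukey comparison).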

Additional observations from a re-analysis of the deposited data

Results flagged for a closer look

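After 4 weeks of CPZ, P2ry12 was highest on array 2, at a log2 signal of 0.74 relative to the array's 75th percentile, where the nearest array of the group read 0.39, a gap that took up 0.870 of the range of the 4 arrays. On the same array Tmem119 was lowest of its group, at 1.30 beside the nearest array at 1.45, a gap of 0.867 of the range. These were 2 of the 18 group and gene combinations examined for a stray sample, and chance flags about 1 in 20. The whole range of the 4 arrays was small for Tmem119, from 1.30 to 1.48.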

How the results depend on the processing

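No called count of the 9 genes was above 0 except under 2 alternatives: with estimated array weights 1 gene was called at 2 weeks (Gpr34) and 3 at 4 weeks against untreated (P2ry13, Gpr34 and Olfml3), and with the slide as a fixed block 2 were called at 4 weeks (Gpr34 and Olfml3). Calls over the whole array rose too, to 5.78% and 6.81% of genes with array weights and 1.93% with the slide block. Leaving out single arrays, the whole-array counts ran from 7 to 64 at 2 weeks, 0 to 147 at 4 weeks (0 without 4-week array 1, 3 or 4 or 2-week array 3), 0 to 49 between them, 4 to 195 on regular diet (4 without untreated array 3) and 0 to 1435 between regular diet and 4 weeks. Between regular diet and 4 weeks the count was also 266 with quantile normalization, 1044 with median scaling and 1860 with array weights, and with only the groups compared it was 0 at 2 weeks and 172 at 4 weeks. Numbers in the labels did not pair the arrays (r of deviations from group means -0.64 to 0.41 over 19 same-numbered pairs). With a replicate block the number of genes called over the whole array was 0, 0, 0, 19 and 0 in the 5 comparisons, beside 43, 34, 3, 176 and 1, and 0 of the 9 were called. Median scaling moved the median of all genes by -0.16, 0.12, 0.28, -0.18 and -0.30 in the same order. Of 1188 single-gene values under alternatives, 52 turned direction, all of them uncalled. The cause was not tested.

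Under the recorded assignment, against untreated at 2 weeks, P2ry12 read 0.19, P2ry13 0.48, Siglech 0.15, Sall1 0.14 and Gpr34 -0.062, and Tmem119 on regular diet -0.055. Between 4 and 2 weeks P2ry13 read -0.063, Cx3cr1 -0.062 and Sall1 -0.11, and between regular diet and 4 weeks P2ry12 -0.14, Tmem119 -0.16, Csf1r -0.042, Siglech -0.27 and Sall1 0.37. With array weights, P2ry13 read 0.49 and Tmem119 0.26 at 2 weeks, Csf1r -0.034 between 4 and 2 weeks, and between regular diet and 4 weeks P2ry12 -0.13, Tmem119 -0.28, Siglech -0.085, Gpr34 -0.42 and Olfml3 -0.16. Without regular diet arrays 1 and 2, a setting added after seeing the data, the regular diet differences from untreated were -0.089 for P2ry12, -0.35 for Tmem119, -0.041 for Siglech and -0.074 for Sall1. Those from 4 weeks were -0.39 for P2ry12, -0.18 for P2ry13, -0.43 for Tmem119, -0.010 for Cx3cr1, -0.016 for Csf1r, -0.045 for Siglech, -0.63 for Gpr34 and -0.49 for Olfml3. Cx3cr1 read -0.0027 at 2 weeks with the slide as a fixed block, Siglech at 4 weeks -0.16 with normexp on median signals and -0.024 with the replicate block, and Sall1 on regular diet -0.012 with median scaling and -0.068 with normexp.

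With single arrays left out, the number of the 9 genes called was 0 throughout, and differences that turned direction ranged from -0.30 to 0.36 for P2ry13 and -0.49 to 0.11 for Tmem119 at 2 weeks, -0.17 to 0.43 for Tmem119 and -0.12 to 0.090 for Siglech at 4 weeks, -0.019 to 0.41 for Csf1r between 4 and 2 weeks, -0.044 to 0.34 for Sall1 on regular diet and -0.027 to 0.65 for Gpr34 between regular diet and 4 weeks. The files held no mean spot signal, so normexp used median signals.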
